A study of Mus musculus with 5 samples.

Results

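The genes described here encode the proteins of the cytosolic ribosome. They were chosen by platform symbol alone, as every symbol that begins with Rpl or Rps and a number, together with Rplp0 to Rplp2 and Rpsa, without the Rps6k kinases and without symbols that end in -ps. The rule found 81 symbols, of which 50 have a probe set that names that gene and no other (a 1-gene probe set), out of 18194 such genes on the array. A filter on dim probe sets left 48 of the 50 among 12023 genes tested. One of the 48, Rps19bp1, encodes a binding partner of Rps19 and no ribosomal protein, and it is kept out of the counts by subunit, which cover 25 genes of the large and 22 of the small subunit. The other 31 symbols are measured only by probe sets that list several genes, and these are given apart. Rpl3l, a muscle paralog of Rpl3, did not pass the filter, with signals of 2.10 to 18.9 on the 5 arrays, nor did the 1-gene probe set of Rps16, with signals of 0.737 to 1.48.

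The ribosome is built of these proteins around ribosomal RNA, the large subunit forming peptide bonds and the small subunit reading the mRNA. Germinal centre B cells divide fast and have to make new ribosomes for each division, and ribosomal protein mRNAs are among the most abundant in them. Most of these mRNAs begin with a 5′ terminal oligopyrimidine (TOP) tract, a C followed by further C or T bases. Through it mTORC1 and the RNA-binding protein Larp1 set their translation, which array signals do not measure.

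The starts of 6 genes that the results below turn on are shown to let the tract be seen. Each run holds 20 bases before and 20 bases from the annotated start, 5′ to 3′ on the gene's strand, from RefSeq on GRCm38.p6, and capitals mark a C followed by at least 4 bases that are each C or T, beginning within 5 bases of the start.
Rps6, chr4:86857348-86857387, minus strand: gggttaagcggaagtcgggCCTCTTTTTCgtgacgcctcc
Rpl38, chr11:114668560-114668599, plus strand: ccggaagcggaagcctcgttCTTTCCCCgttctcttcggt
Rps26, chr10:128626487-128626526, minus strand: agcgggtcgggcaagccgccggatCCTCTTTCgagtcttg
Rpl14, chr9:120571497-120571536, plus strand: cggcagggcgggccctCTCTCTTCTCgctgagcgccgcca
Rpl22l1, chr3:28805488-28805527, plus strand: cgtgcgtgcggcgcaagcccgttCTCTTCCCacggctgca
Rpl39l, chr16:10170208-10170247, plus strand: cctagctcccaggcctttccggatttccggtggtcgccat
The first 5 hold such a run at the start and Rpl39l does not. A promoter window, 250 bases before to 50 after the start, was listed for 65 of the ribosomal protein symbols, and 46.2% of them had the run at a listed start, against 21.2% of all 27025 genes with a window and 24.1% of the tested genes with one. In the same windows, on both strands, CCGGAAG (the core that ETS factors bind) was present in 26 of the 65, and in 9.9% of all and 19.9% of tested genes. ATGGCG (within the YY1 motif) was present in 30.8%, 10.2% and 17.7%, and the NF-kB motif in 9.2%, 9.6% and 12.0%. Among the 47 genes compared below, those with a listed window fell into 20 with the pyrimidine run, which had a median difference of −0.13, and 21 without it, at −0.12. These are matches of letters and show no binding.

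The arrays came from germinal centre B cells sorted from spleen. The mice were littermates aged 12 weeks on a C57BL/6 background, taken 7 days after sheep red blood cells were given. All mice carried the Cg1-Cre allele, which acts in B cells that switch on the immunoglobulin gamma 1 constant region. The 3 WT arrays are from eGFP-negative cells of mice with Cg1-Cre alone, and the 2 REL arrays from eGFP-positive cells of relfl/fl Cg1-Cre mice, whose Rel gene (the NF-kB subunit c-Rel) is flanked by loxP sites. About 10 ng of total RNA per sample was amplified before labelling, and no label ties the arrays to separate animals. The p-values therefore cover only the spread among these arrays, part of which may be technical.

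The median signal per array was 30.1 to 54.6 and the 2% trimmed mean was 500 on each. The Rel probe set read 492, 134 and 206 in WT against 18.6 and 85.2 in REL, and the labels do not give the deleted exons. For the 12 germinal centre B cell markers tested, the summed signal was 72130 to 87060 in WT against 71787 and 79894 in REL. Singly, 9 were lower and 3 higher in REL. Gcsam and Rgs13 had both REL arrays below every WT array and 0 had both above, where 14.2% and 9.67% of all genes did. No marker was listed at 0. Of 15 macrophage and monocyte markers 12 were tested and 11 were higher in REL, with a summed signal of 1271 to 1874 in WT against 5869 and 6389 in REL. T cell markers summed to 4550 to 5352 in WT against 5874 and 5158 in REL, neutrophil markers to 63 to 1255 and to 316 and 41, and erythroid markers to 113 to 538 and to 108 and 43. Most of the T cell sum was Cd2, at 4396, 5233 and 4743 in WT against 5725 and 5088 in REL. Cd3e read 83.0, 7.55 and 27.7 in WT against 18.3 and 4.63 in REL. The Actb control probe sets gave 3′ to 5′ ratios of 1.58 to 2.45 in WT against 1.64 and 1.74 in REL. The part of these cells and of RNA quality in the values below was not tested.

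The comparison of REL with WT put most ribosomal protein mRNAs slightly below WT, with a median shift smaller than the spread among the WT arrays, and no single gene passed the test. The median log2 difference, REL minus WT on the log2(signal + 16) scale, was −0.12 over the 25 large subunit genes and −0.13 over the 22 small subunit genes, beside −0.07 over all 12023 genes. The difference was below 0 for 22 of 25 large and 19 of 22 small subunit genes, as it was for 56.6% of all genes. By limma, 0 of the 47 ribosomal protein genes passed at an adjusted p under 0.05, where 0% of all genes did, and the smallest adjusted p among them was 0.637. At an unadjusted p under 0.05 there were also 0 of 47, where 8.15% of all genes stood (4.89% lower). Without WT replicate 1 there were 9, all lower, where 925 of 12076 genes stood. Without WT replicate 2 there were 2, where 751 of 12007 genes stood. The REL pair was wholly below the WT arrays for 3 genes (Rps6, Rps25 and Rpl22l1) and above for 1 (Rps27), where 14.2% and 9.67% of all genes did. In bulk samples fewer cells of a type and less RNA per cell cannot be told apart.

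**Figure D1:**
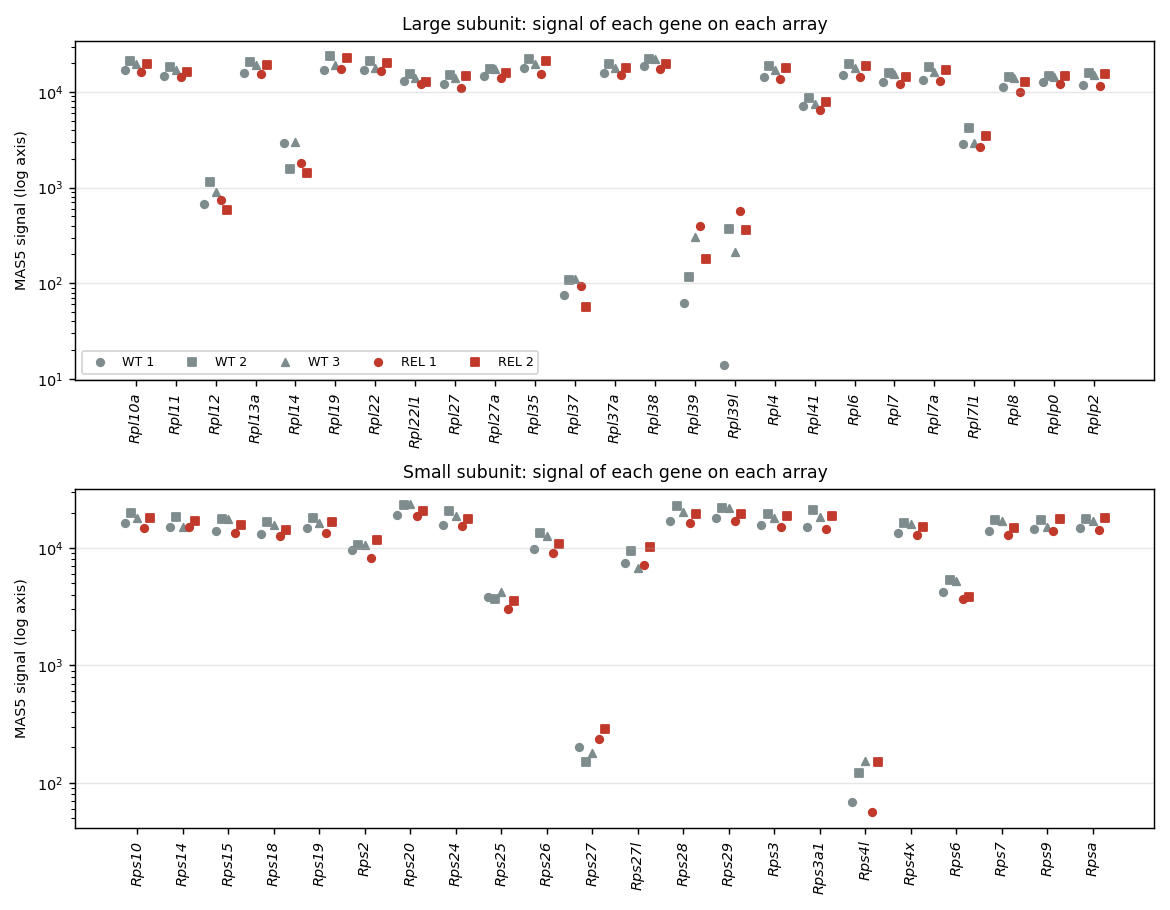
MAS5 signal (log axis) of the 25 large subunit genes (top) and 22 small subunit genes (bottom) on each of the 3 WT (grey) and 2 REL (red) arrays. Most genes sit above 10000 with the grey and red points mixed, and REL 1 is the lowest point for 38 of the 47 genes.

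The arrays within a group differed more than the groups did. REL replicate 1 was the lowest of all 5 arrays for 38 of the 47 genes, and WT replicate 2 the highest for 30. WT replicate 1 was the lowest of the WT arrays for 42, and REL replicate 2 lay inside or above the WT range for 41. The median deviation of the large subunit genes from their WT mean was −0.19, 0.15 and 0.04 on WT replicates 1 to 3 and −0.26 and 0.05 on REL replicates 1 and 2. The small subunit followed with −0.19, 0.13 and 0.04 in WT against −0.26 and 0.001 in REL. So both subunits moved together from array to array, REL replicate 1 stood near WT replicate 1, and REL replicate 2 stood inside the WT range. Without REL replicate 1 the median difference was 0.05 for the large and 0.001 for the small subunit, and without REL replicate 2 it was −0.26 for each. Without WT replicate 1 the medians were −0.20 and −0.24, without WT replicate 2 −0.03 and −0.06, and without WT replicate 3 −0.10 and −0.11.

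The same array pattern was present in other bright probe sets. Of the 47 genes, 35 were measured by a probe set with a mean signal of 10000 or more. The 294 other probe sets at that brightness, which belong to no ribosomal protein symbol of the rule, had median deviations of −0.17, 0.12 and 0.05 in WT against −0.21 and 0.02 in REL. Their median difference was −0.10, beside −0.13 for the 138 ribosomal protein probe sets of that brightness, and 88.1% of them lay below 0, beside 97.8%. Over all genes tested the array medians were −0.05, 0.00 and 0.06 in WT against −0.035 and −0.09 in REL. With quantile normalization, which gives every array the same distribution of signals, the medians were −0.005 for the large and −0.022 for the small subunit, and those of the bright probe sets were −0.019 for ribosomal proteins and 0.003 for the others. The brightness classes were chosen after the values were seen.

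**Figure D2:**
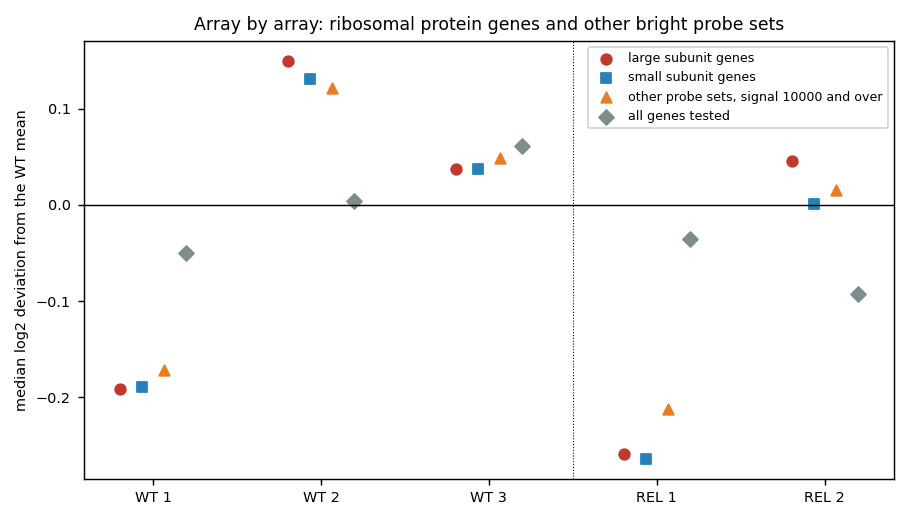
Median log2 deviation from the WT mean on each array, for large subunit genes (red), small subunit genes (blue), other probe sets with a signal of 10000 and over (orange) and all genes tested (grey). The red, blue and orange points move together, lowest on WT 1 and REL 1, while the grey points stay between −0.09 and 0.06.

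Of the large subunit, the stalk recruits the elongation factors. Its scaffold gene Rplp0 read 12704, 14750 and 14227 in WT against 12132 and 14775 in REL, a difference of −0.05 (SE 0.13). REL replicate 2 was the highest of the 5 arrays, and the 95% interval, −0.34 to 0.24, holds changes of either sign. Rplp2 was at −0.07 (SE 0.17). Rpl12, at the base of the stalk, was at −0.42 (SE 0.37) on a dimmer probe set, with 673, 1153 and 908 in WT against 742 and 586 in REL, and the groups overlapped. Bright probe sets that list Rpl12 with other genes were at −0.08 (SE 0.14) and −0.13 (SE 0.14).

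Near the peptidyl transferase centre, where peptide bonds form, Rpl8 read 11444, 14510 and 14000 in WT against 9972 and 12716 in REL, a difference of −0.23 (SE 0.15). One REL array was below and the other within the WT range. Rpl10a, of the L1 stalk by which used tRNA leaves, was at −0.10 (SE 0.13). Rpl11, which with Rpl5 and the 5S ribosomal RNA can hold the p53 ligase Mdm2, was at −0.12 (SE 0.12). Of the exit tunnel proteins Rpl4 was at −0.09, Rpl19 at 0.01, Rpl22 at −0.05 and Rpl35 at −0.14, each with an SE of 0.13 to 0.16. The sign of Rpl4 and Rpl22 turned with quantile normalization (0.02 and 0.08), as did that of Rpl19 with median centring (−0.05).

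The large subunit genes with the smallest p below 0 were Rpl14, Rpl38, Rpl8, Rpl22l1, Rpl27a and Rpl12. Rpl14 read 2910, 1554 and 2989 in WT against 1807 and 1436 in REL, at −0.56 (SE 0.32), and WT replicate 2 lay among the REL arrays. The probe sets that list Rpl14 with its pseudogene were brighter and gave −0.23 to −0.17. Rpl38, whose loss in mice disturbs patterning of the skeleton, read 18667, 22255 and 22388 in WT against 17329 and 19748 in REL. That is −0.18 (SE 0.12), and the REL arrays overlapped the WT range. Rpl27a was at −0.14 (SE 0.12). The 3 genes above 0 were Rpl39l, Rpl39 and Rpl19, and the adjusted p of the large subunit genes ran from 0.687 to 0.995 in limma.

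**Figure D3:**
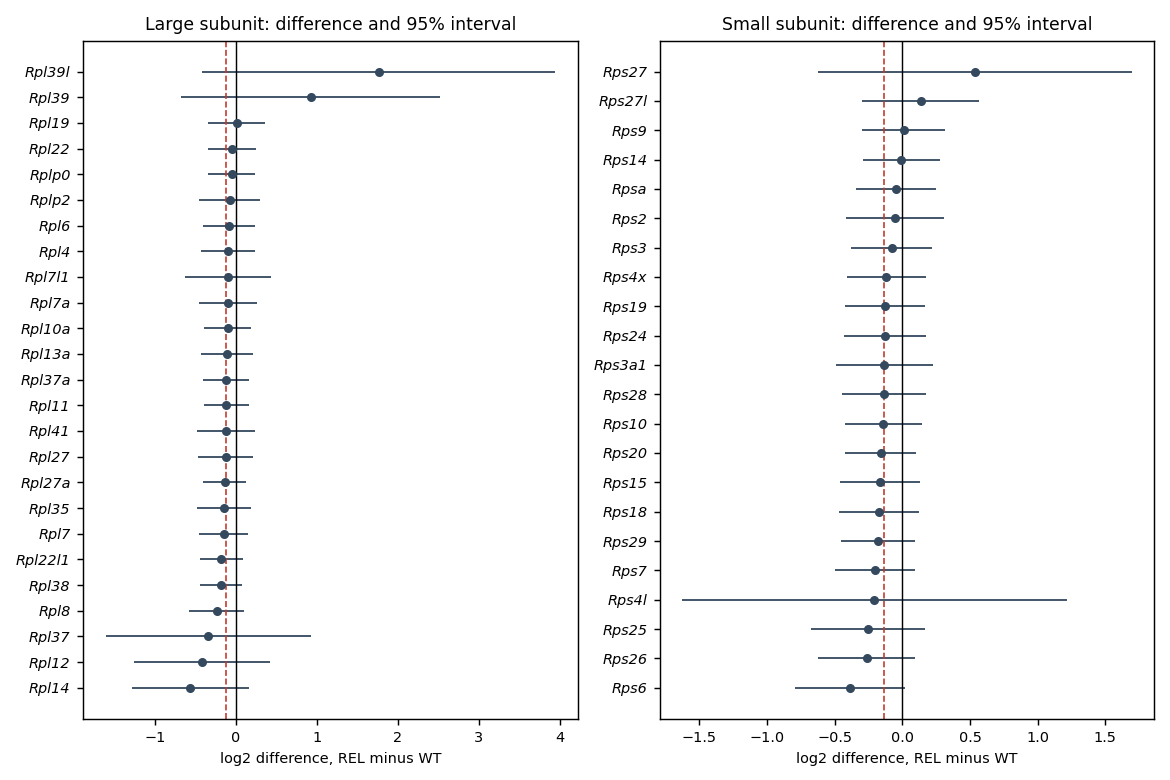
Log2 difference REL minus WT (points) with its 95% interval from the limma fit (bars) for the large (left) and small (right) subunit genes. The dashed red line marks the subunit median, −0.12 and −0.13, and every bar crosses 0.

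In the small subunit Rps6, the substrate of S6 kinase downstream of mTORC1, had the smallest p of all members. Its probe set read 4228, 5338 and 5267 in WT against 3709 and 3814 in REL, a difference of −0.39 (SE 0.18, limma adjusted p = 0.637). The groups did not overlap. A second Rps6 probe set, with signals of 11.0 to 60.7 in WT against 47.8 and 196 in REL, was at 1.51 (SE 0.75), and the mean of the pair was 0.56. The 9 probe sets that list Rps6 with a pseudogene gave −0.22 to −0.04. All Rps6 probe sets but the dim second one were below 0. That one was high on REL replicate 2 alone, and the sign of the mean of the pair rested on it.

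Rps26, which touches the mRNA at the exit channel, read 9900, 13563 and 12584 in WT against 9084 and 10852 in REL, at −0.26 (SE 0.16), with REL replicate 2 inside the WT range. Of the other channel proteins, Rps2 was at −0.05, Rps3 at −0.08, Rps28 at −0.14 and Rps14 at −0.01, with SEs of 0.13 to 0.16, and Rps2, Rps3 and Rps14 changed sign with quantile normalization (0.02, 0.03 and 0.10). In the head, Rps10 was at −0.14, Rps19 at −0.13 and Rps20 at −0.16. Rps25, used by some internal ribosome entry sites, read 3847, 3704 and 4255 in WT against 3043 and 3565 in REL, at −0.25 (SE 0.19), the groups not overlapping. A Rps25 probe set that also lists Gm6988 and Gm4963 was at −0.09 (SE 0.15). Rpsa, also known as the laminin receptor and needed for the human spleen to form, was at −0.05 (SE 0.13), and at 0.07 with quantile normalization.

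Among the other small subunit genes with the smallest p were Rps7 at −0.20 (SE 0.13), Rps29 at −0.18 (SE 0.12) and Rps20. A list of 9 genes mutated in Diamond-Blackfan anaemia, a human failure of red cell production, was taken, which is not complete for the disease. Of these 6 were tested (Rps19, Rps7, Rps10, Rps24, Rps26 and Rpl11). All 6 were below 0, from −0.26 to −0.12, as were 41 of the 47 ribosomal protein genes and 56.6% of all genes. Their median was −0.13, the median of the small subunit. The 3 small subunit genes above 0 were Rps27, Rps27l and Rps9. The adjusted p of the small subunit genes ran from 0.637 to 0.995 in limma.

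Several ribosomal proteins have a paralog that can take their place. Rpl22l1, which acts in lymphocyte development beside Rpl22, read 13020, 15508 and 13981 in WT against 12233 and 12756 in REL. This is −0.18 (SE 0.12), with both REL arrays below every WT array, beside −0.05 (SE 0.13) for Rpl22 on its brightest probe set. Rps27l, a p53-induced relative of Rps27, read 7471, 9407 and 6809 in WT against 7237 and 10208 in REL, at 0.14 (SE 0.19), and its 3 probe sets gave 0.04 to 0.14. Without REL replicate 2 it was at −0.11. The 1-gene probe set of Rps27 was dim, at 202, 149 and 178 in WT against 235 and 290 in REL (0.54, SE 0.52), the groups not overlapping. The probe set that lists Rps27 with its retrocopy Rps27rt read 15794 to 21747 in WT against 15920 and 19423 in REL, at −0.09 (SE 0.15). These readings of Rps27 differ in sign.

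Rpl39l, a paralog best known from the testis, read 14.1, 372 and 210 in WT against 571 and 360 in REL, at 1.76 (SE 0.97, 95% interval −0.42 to 3.95). The groups overlapped, and 1 WT array was near background. The 1-gene probe set of Rpl39 was dim as well (0.93, SE 0.71), and the brighter one listing another gene was at −0.19 (SE 0.12). Rpl7l1, which acts in ribosome assembly, was at −0.10 (SE 0.24), and another of its 3 probe sets read 1904, 1909 and 1393 in WT against 1347 and 990.5 in REL (−0.57, SE 0.30). Rps4l was at −0.21 (SE 0.63), beside −0.12 (SE 0.13) for Rps4x. Without the paralogs the medians were −0.12 for 22 large and −0.13 for 20 small subunit genes.

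Of the probe sets that list several genes, 109 passed the filter, naming 46 symbols of the rule, and their median was −0.13, with 98 below 0, beside −0.12 for the 102 1-gene probe sets. It was 0.005 without REL replicate 1, −0.28 without REL replicate 2 and −0.038 with quantile normalization, and −0.25 to −0.066 when a WT array was left out. None passed in limma over 27060 probe sets, where 0% did. At an unadjusted p under 0.05 there were 6 lower and 0 higher, where 4.1% and 3.71% of all probe sets stood. Both REL arrays were below every WT array for 8 of the 109 and above for 3, where 13.1% and 10.5% of all probe sets were. Rpl9 read 15560, 19495 and 17498 in WT against 13302 and 14863 in REL on its brightest probe set, at −0.31 (SE 0.12, limma adjusted p = 0.584), with both REL arrays below every WT array. A dim Rpl9 probe set went the other way, with 82.7, 130 and 144 in WT against 195 and 207 in REL (0.72, SE 0.57). Rpl36 had 3 probe sets at −0.39, −0.36 and −0.23. Rplp1 was at −0.16 (SE 0.14), Rpl10, which completes the large subunit, at −0.16 and −0.10, and Rps12 at −0.19, −0.16 and −0.15 on its bright probe sets.

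Ribosomal protein probe sets of middle signal are given apart. Over the 27 with a mean signal of 500 to 5000, which name 18 symbols of the rule including Rps19bp1, the median was −0.26, beside −0.01 for the 8941 other probe sets of that class and −0.13 for the bright ribosomal protein probe sets. In this class 9 of 27 had both REL arrays below every WT array and 1 had both above, where 13.1% and 10.5% of all probe sets did. The array medians were −0.18, 0.15 and −0.01 in WT against −0.26 and −0.365 in REL, so that here REL replicate 2 also lay below every WT array. With quantile normalization the median was −0.24. Leaving out REL replicate 1 gave −0.365 and leaving out REL replicate 2 −0.26, where the bright ribosomal protein probe sets were at 0.021 and −0.28. The gap between the middle and bright classes thus rested on REL replicate 2. Leaving out each WT array gave −0.35 to −0.17 for the middle class. The class was chosen after its values were seen, and no test was made of it.

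Rpl5, whose protein carries the 5S ribosomal RNA with Rpl11, had the smallest p of these probe sets. One that lists it with its pseudogene read 1880, 2399 and 2134 in WT against 1058 and 1180 in REL, at −0.92 (SE 0.26, limma adjusted p = 0.457 over all probe sets). Another Rpl5 probe set read 1818, 2573 and 2185 in WT against 1360 and 1335 in REL, at −0.68 (SE 0.26). The brightest Rpl5 probe set read 14434, 18526 and 18246 in WT against 13976 and 17014 in REL, at −0.14 (SE 0.14). So both dimmer probe sets separated the groups and the bright one did not.

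Some other genes had a like split between probe sets. A Rpl22 probe set read 1044, 627 and 913 in WT against 491 and 367 in REL, at −0.96 (SE 0.40), while its 2 bright ones were at −0.05 and −0.0019. Rpl15 was at −0.97 (SE 0.32) on a probe set reading 1833, 3437 and 2085 in WT against 1122 and 1270 in REL, and at −0.13 (SE 0.13) on the bright one. Rpl3 was at −0.71 (SE 0.35) and −0.07 (SE 0.14) in the same order. Rpl31 had no such split, at −0.12 (SE 0.26) on a probe set of middle signal and −0.12 to −0.10 on bright ones. Rpl23 was at 0.27 (SE 0.26) on a probe set of middle signal, with both REL arrays above every WT array. Its bright probe sets were at −0.18 to −0.07. Rpl41, the smallest of these proteins, also went the other way, with 2 probe sets of middle signal at 0.70 (SE 0.35) and 0.59 (SE 0.30). Another was at −0.27 (SE 0.42). REL replicate 2 alone was high on the first pair, at 4093 and 5662, while the WT arrays read 1572 to 2742 and REL replicate 1 read 1763 and 2733. Which transcript ends these probe sets read is not given in the sources used here. Of the 24 genes with over 1 probe set past the filter, 6 had probe sets on both sides of 0, the widest gaps being those of Rps18 (−0.17 and 1.93) and Rps6.

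**Figure D4:**
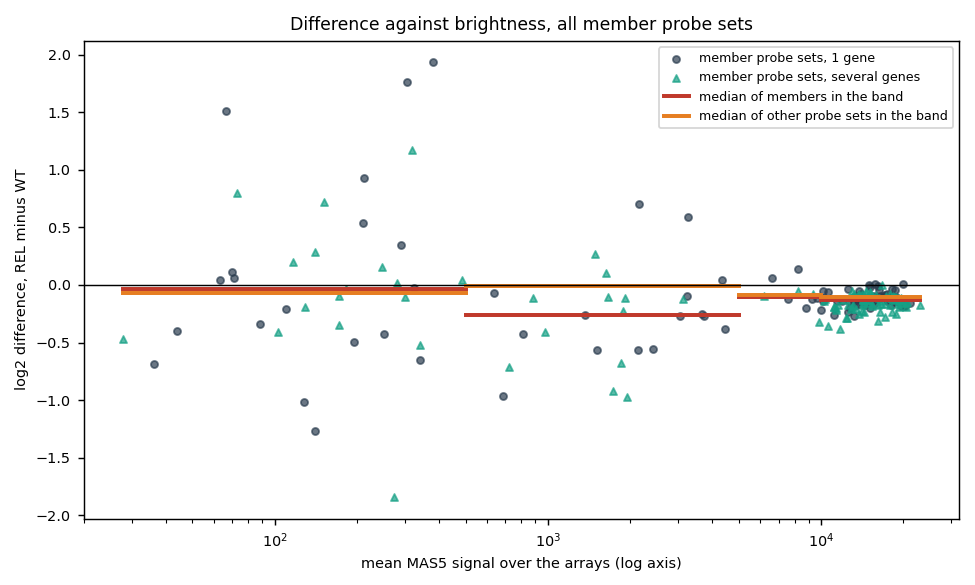
Log2 difference REL minus WT against mean signal (log axis) for the 211 member probe sets past the filter, with those naming 1 gene as dots and those naming several as triangles. Horizontal bars give the median per signal class, and the red bar of members lies at −0.26 against −0.01 for other probe sets between 500 and 5000, while the bars nearly meet at 10000 and over.

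The ribosome's own RNA was read by 3 control probe sets for 18S ribosomal RNA. The middle one read 9822, 8696 and 9154 in WT against 11953 and 13417 in REL, and the 3′ one 746, 718 and 904 in WT against 1194 and 1098 in REL. The 5′ one read 858, 536 and 293 in WT against 1671 and 1984 in REL. All 3 were higher on both REL arrays than on any WT array, where 10.5% of all probe sets were. Of the 211 member probe sets, 5 had both REL arrays above every WT array and 15 had both below. The 18S probe sets also depend on how much ribosomal RNA entered the amplification, which was not tested.

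Genes that share the TOP tract, among them the translation elongation factors, lay with the ribosomal proteins and with other bright probe sets. Of 20 listed 19 were tested, 17 were below 0, and the median was −0.10. Of all genes 56.6% were below 0. Of the 294 other probe sets at 10000 and over, which include some of these genes, 88.1% were below 0, with a median of −0.10. None passed in limma. Eif3e, a subunit of the initiation factor eIF3, was at −0.37 (SE 0.15, unadjusted p = 0.0315 in limma), with 8788, 10877 and 11208 in WT against 7670 and 8173 in REL, both below every WT array. Eif3l was at −0.38 (SE 0.18), Eef2 at −0.15 and Eef1a1 at −0.06. Fau, which encodes small subunit protein S30 fused to a ubiquitin-like protein and lies outside the symbol rule, was at −0.09 (SE 0.15). Of the regulators, Larp1 was at 0.11 (SE 0.18), Mtor at 0.11, Ssb, which encodes the La protein, at −0.01 and the S6 kinase gene Rps6kb2 at −0.06. Rptor, the mTORC1 scaffold, read 91.4, 125 and 151 in WT against 80.3 and 62.1 in REL on a dim probe set, at −0.65 (SE 0.56, limma adjusted p = 0.809). Of the 5 tested, 1 (Rptor) had both REL arrays below every WT array, where 14.2% of all genes did. None had both above, where 9.67% of all genes did.

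Chaperones and importers carry ribosomal proteins to the place of assembly, and some chaperones serve a single protein. The list taken here is wider, and holds general importers such as Ipo5 and Ipo7. All 17 listed were tested, 12 were below 0, and the median was −0.16, with array medians of −0.07, 0.06 and 0.05 in WT against −0.08 and −0.27 in REL. None passed in limma, and 2 lower and 1 higher stood at an unadjusted p under 0.05, where 8.15% of all genes did (4.89% lower). Grwd1, a chaperone of Rpl3, read 1259, 1870 and 2457 in WT against 764 and 781 in REL, at −1.20 (SE 0.34, limma adjusted p = 0.416). Bccip, which binds Rpl23, read 3093, 2256 and 3092 in WT against 1603 and 1580 in REL, at −0.80 (SE 0.24, limma adjusted p = 0.44). In both the groups were apart. Of the 17, 3 had both REL arrays below every WT array and 1 had both above, where 14.2% and 9.67% of all genes did. Pdcd2l, at −0.61 (SE 0.35), was the third of the lower ones. Heatr3, which escorts Rpl5 and Rpl11, was at 1.20 (SE 0.45, limma adjusted p = 0.509), with 1359, 889 and 477 in WT against 2588 and 1456 in REL. Its partner genes Rpl5 and Rpl11 were below 0 on their bright probe sets, as given above.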

How the data were processed

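Single-colour Affymetrix arrays of 5 samples were analysed. The authors deposited MAS5 signal intensities per probe set on a linear scale, with MAS5 named in the submitters' processing notes and its settings not given in the sources used here. The values' 2% trimmed mean is 500 on each array. Signals were used as log2(signal + 16) with no further normalization. Of 45101 probe sets the lowest 40% by mean signal (below about 26.8) were left out, and the brightest of a gene's 1-symbol probe sets stood for it. Symbols are those of the platform annotation. The test was that of limma (version 3.58.1, under R 4.3.3; group as the single term, eBayes with a mean-variance trend, 3 residual and 6.42 prior degrees of freedom, Benjamini-Hochberg adjustment, two-sided, called under 0.05). Probe sets, named or not, were fitted the same way (27060). Intervals are 95% intervals from that fit. The code was tested on simulated data. The number of arrays limits the precision.

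Groups were taken from the sample titles. The members, lists, groups by role and tests were chosen with earlier results of these data known. Genes named are members of those role groups, paralogs with their parents, the 6 members per subunit and direction with the smallest p, and members whose probe sets disagree most, and others were named after their values were seen. Shared replicate numbers were not used as pairs in the main fit. Tables were made with pandas (2.3.3), numpy (2.4.6) and scipy (1.17.1) under Python (3.11.15), and plots with matplotlib (3.10.9).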

Additional observations from a re-analysis of the deposited data

How the results depend on the processing

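No ribosomal protein gene was called under any of the 20 alternatives fitted. The count called over all genes, 0 by limma (980 at an unadjusted p under 0.05), became 2 with quantile normalization (Mrpl33 and Vcam1), 1 with median centring (Vcam1), 18 with the replicate number as a block, 1 (Vcam1) with the filter and the brightest probe set taken by mean log2 signal (added after seeing the data), and 0 to 9 when an array was left out, above 0 only without REL replicate 1. The replicate block gave −0.10 for the large and −0.11 for the small subunit, with 7 of the 47 members at an unadjusted p under 0.05, where 913 of 12023 genes stood. Same-numbered arrays deviated with correlations of −0.033 and −0.015 over all genes tested. With 2 REL arrays their deviations mirror each other, so these correlations cannot tell whether the numbers pair the arrays. Median centring gave −0.18 and −0.20, with all genes at −0.13.

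With quantile normalization 12 genes changed sign, and stood at these values: Rpl10a 0.012, Rpl13a 0.018, Rpl22 0.076, Rpl37a 0.0005, Rpl4 0.018, Rpl6 0.030, Rplp0 0.057, Rplp2 0.034, Rps14 0.10, Rps2 0.025, Rps3 0.033 and Rpsa 0.071. When a gene's probe sets were averaged, those that turned were Rpl41 0.23, Rps18 0.27, Rps6 0.56 and Rps9 −0.011. With median centring they were Rpl19 −0.054 and Rps9 −0.054, and with the replicate block Rpl19 −0.010, Rps4l 0.014 and Rps9 −0.016. Leaving out 1 array turned 24 genes, with ranges of −0.24 to 0.042 (Rpl10a), −0.26 to 0.045 (Rpl13a), −0.17 to 0.19 (Rpl19), −0.19 to 0.092 (Rpl22), −0.33 to 0.087 (Rpl27), −0.37 to 0.084 (Rpl35), −0.25 to 0.0098 (Rpl37a), −0.28 to 0.092 (Rpl4), −0.26 to 0.026 (Rpl41), −0.27 to 0.099 (Rpl6), −0.30 to 0.10 (Rpl7a), −0.29 to 0.093 (Rpl7l1), −0.19 to 0.091 (Rplp0) and −0.29 to 0.14 (Rplp2). In the small subunit they were −0.29 to 0.0060 (Rps10), −0.097 to 0.092 (Rps14), −0.27 to 0.016 (Rps19), −0.31 to 0.20 (Rps2), −0.11 to 0.38 (Rps27l), −0.24 to 0.078 (Rps3), −0.32 to 0.053 (Rps3a1), −0.80 to 0.39 (Rps4l), −0.17 to 0.18 (Rps9) and −0.22 to 0.12 (Rpsa). The cause was not tested.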
